A study of Homo sapiens with 9 samples.

Results

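The RNA levels of 10 genes of the insulin/IGF pathway were followed across 9 microarrays of HCT 116 cells, an established line from a human colorectal carcinoma, taken 24 hours after they were transfected. The genes were IGFBP2, the receptors IGF1R, INSR and IGF2R, the adaptors IRS1 and IRS2, the phosphoinositide 3-kinase (PI3K) subunit PIK3R1 and the transcription factors FOXO1, FOXO3 and FOXO4. They were chosen by name, as pathway members, with earlier results of these data known. Each is represented by the brightest probe set that names it alone. All 10 were measured, among 17958 genes. The arrays formed 3 groups of 3. The KL-FL group received a vector for mouse full-length klotho, the KL1 group a vector for the KL1 subdomain of mouse klotho, and the control group the empty vector pcDNA3. All groups were the same parental line. The transfection reagent is given as JetPEI or polyethylenimine, without a label that ties either to an array. Whether replicates came from separate cultures is not labelled, and the p-values therefore reflect array-to-array spread that may be only technical. RNA was taken from whole cultures, in which fewer cells expressing a gene and less RNA per cell cannot be told apart.

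Insulin and the insulin-like growth factors bind receptor tyrosine kinases, which phosphorylate the IRS adaptors. These recruit PI3K, PI3K activates AKT, and AKT phosphorylates FOXO factors, which then leave the nucleus and stop driving their target genes. In colorectal epithelium the pathway is known for supporting growth and survival. Klotho is reported to inhibit IGF1 signalling, and the comparisons below ask whether RNA of the pathway differed after klotho transfection. Phosphorylation and protein were not measured.

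The array medians over all genes lay between 5.38 and 5.42 on the log2 scale. KL-FL replicate 3 stood apart, with a median correlation of 0.997 with the other 8 arrays, followed by KL1 replicate 2 at 0.998, and both correlations were lower than those of the remaining 7 arrays. Of the epithelial markers 10 of 12 read above the median gene, led by KRT8 at 10.7. Those below it were VIL1, at 3.78 in control, and CEACAM5, the lowest, at 3.26. Of 5 measured leukocyte markers and 7 fibroblast and endothelial markers, 1 each read above the median gene. These were CD68 at 6.17 and COL1A1 at 5.77, while PTPRC, the lowest leukocyte marker, read 2.74. The summed level of each list, as a mean per gene, ranged over the 9 arrays from 7.63 to 7.85, from 3.69 to 3.81 and from 4.03 to 4.09. KL itself, read by probes for the human gene, was 0.14 (SE 0.040) higher with KL-FL and 0.15 (SE 0.040) higher with KL1 on the log2 scale, with adjusted p = 0.637 and 0.927 in limma. Its level was low, with means of 3.05 in control and 3.19 with each vector, and only 12.7% of genes read as low or lower.

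None of the 10 genes passed the limma test in any comparison (Benjamini-Hochberg adjusted p over all genes, threshold 0.05). In each comparison with control 1 gene of 17958 passed, or 0.00557%, namely DDIT3, the stress-induced transcription factor CHOP, and between KL-FL and KL1 0 genes passed. With the replicate number as a block DDIT3 no longer passed, and 0 genes did in any comparison. The widest difference among the 10 was in FOXO4, 1.17-fold lower with KL-FL (log2 difference -0.23, SE 0.066, n = 3 per group). IGF1R was 1.13-fold lower with KL1 (-0.18, SE 0.061). FOXO1 was 1.10-fold lower with KL-FL (-0.14, SE 0.056) and 1.09-fold lower with KL1 (-0.13, SE 0.056). At an unadjusted p under 0.05 there were 2 of the 10 for KL-FL, FOXO4 and FOXO1, both lower, where 7.16% of all genes reached that level and 2.28% were lower. For KL1 there was 1, IGF1R, also lower, where 5.1% of all genes reached that level and 2.11% were lower. The median log2 difference of the 10 was -0.022 for KL-FL and -0.035 for KL1, and that of all genes was 0.0099 and 0.0026. With 1 array left out the medians of the 10 ran from -0.040 (without control replicate 1) to -0.011 (without control replicate 2) for KL-FL and from -0.045 (without KL1 replicate 2) to -0.016 (without KL1 replicate 3) for KL1. The median deviation of the 10 from their group means had an SD of 0.028 over single arrays. The KL-FL median of -0.022 was smaller in size than this SD, and the KL1 median of -0.035 was larger. A spread of single arrays is not that of a difference between means of 3 arrays.

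The deposited values often tied between arrays. Of all genes, 68.5% had the same value, to the deposited 5 decimals, on at least 2 arrays, and in 96.5% of those genes a tied value was also the median of the 9 arrays. Of the 10 genes 9 had such a tie, FOXO1 being the exception, and for 8 of them it lay at the median.

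**Figure D1:**
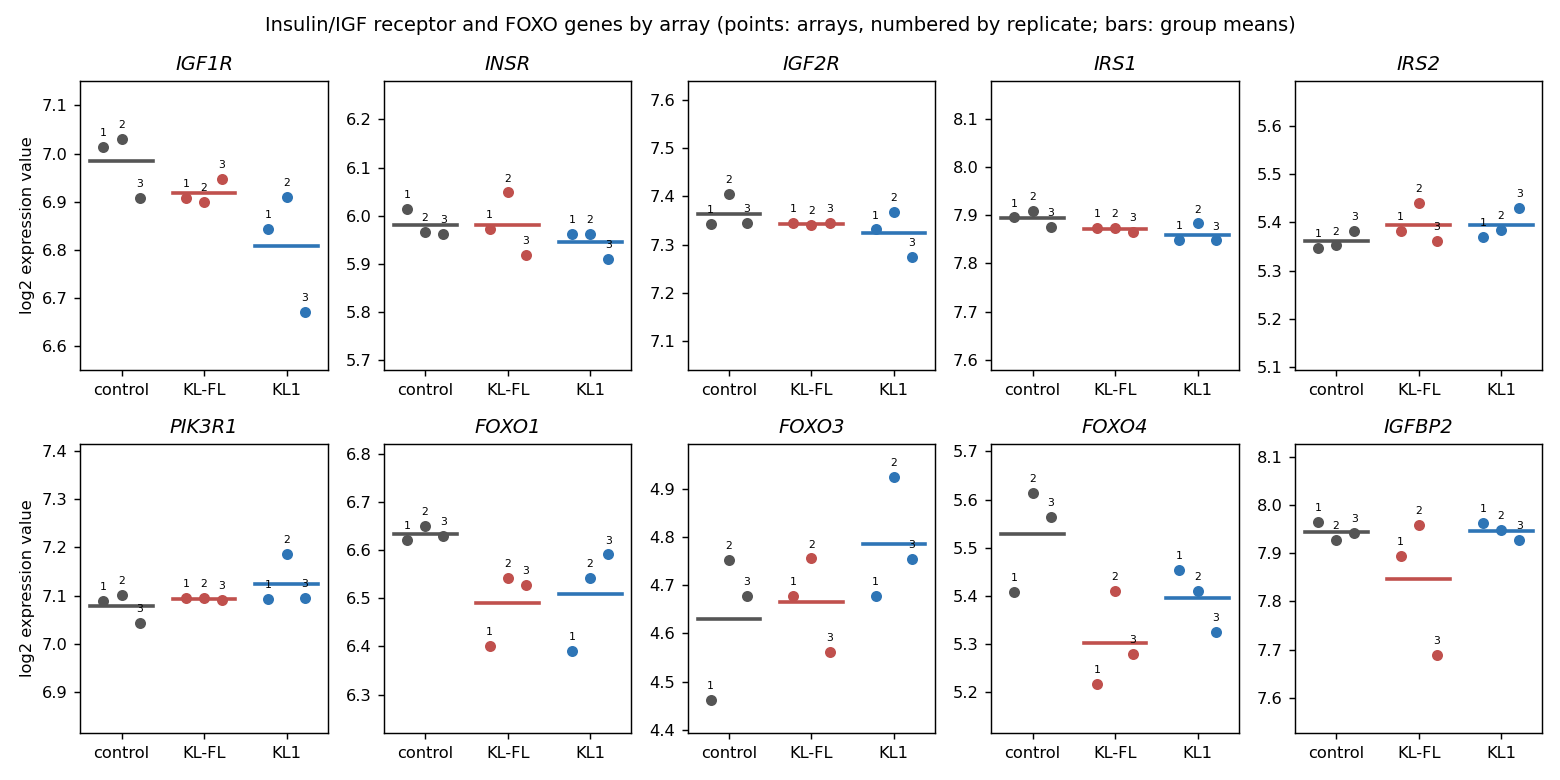
Log2 expression value (vertical axis, spanning 0.6 in every panel) of the 10 genes on each array, by group, with replicate numbers beside the points and bars at the group means of 3 arrays. The 3 control arrays of FOXO1 lie above the 6 klotho arrays, while FOXO4 and IGF1R show lower klotho means with overlapping points.

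IGFBP2 is a secreted protein that binds IGFs and limits their access to the receptor. Its control arrays read 7.97, 7.93 and 7.94, its KL-FL arrays 7.89, 7.96 and 7.69, and its KL1 arrays 7.96, 7.95 and 7.93. Control and KL1 occupied the same range, and KL-FL replicate 3 lay far below all other arrays. The KL-FL mean of 7.85 ± 0.14 (SD, n = 3) lay below the control mean of 7.94 ± 0.019 (SD, n = 3), a log2 difference of -0.098 (SE 0.061, limma adjusted p = 0.731). Without KL-FL replicate 3 the difference was -0.019. For KL1 it was 0.0013 (95% confidence interval -0.14 to 0.14), a sign that turns when arrays are centred on their medians.

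IGF1R encodes the receptor tyrosine kinase for IGF1 and IGF2. Its control arrays read 7.01, 7.03 and 6.91, its KL-FL arrays 6.91, 6.90 and 6.95, and its KL1 arrays 6.84, 6.91 and 6.67. The means ordered control, KL-FL, KL1, at 6.98 ± 0.066, 6.92 ± 0.025 and 6.81 ± 0.12 (SD, n = 3 each). The highest KL1 array lay just above the lowest control array, so the groups overlapped, and KL1 replicate 3 was the lowest of the 9. The KL1 difference of -0.18 (95% confidence interval -0.31 to -0.04) had adjusted p = 0.927 in limma, and was -0.11 without KL1 replicate 3. The KL-FL difference was -0.066 (95% confidence interval -0.20 to 0.07). A second, dimmer IGF1R probe set gave 0.021 for KL-FL and -0.054 for KL1, so the KL-FL sign differs between probe sets and the KL1 difference was smaller.

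INSR, the insulin receptor, read 6.01, 5.97 and 5.96 in control, 5.97, 6.05 and 5.92 with KL-FL and 5.96, 5.96 and 5.91 with KL1. The 3 groups overlapped, with log2 differences from control of -0.0014 for KL-FL and -0.036 for KL1 (SE 0.039 each). The 95% confidence intervals, -0.09 to 0.09 and -0.12 to 0.05, leave room for folds between 0.940 and 1.06 and between 0.918 and 1.04. IGF2R, which clears IGF2 from the cell surface and carries lysosomal enzymes, read 7.34, 7.40 and 7.34 in control, 7.34 on all 3 KL-FL arrays and 7.33, 7.37 and 7.27 with KL1. Its differences were -0.021 for KL-FL and -0.039 for KL1 (SE 0.034 each), with folds between 0.923 and 1.03 inside the KL1 interval.

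IRS1, the adaptor that links the activated receptors to PI3K, read 7.90, 7.91 and 7.87 in control, 7.87, 7.87 and 7.86 with KL-FL and 7.85, 7.88 and 7.85 with KL1. All KL-FL arrays lay below all controls, yet the nearest arrays were the same to 2 decimals, and the log2 difference was -0.022 (SE 0.027, limma adjusted p = 0.836). Groups failed to overlap in 10.4% of all genes for KL-FL and in 9.47% for KL1. The vector was higher in 7.13% and 5.13% and lower in 3.25% and 4.34%. Of the 10 genes 2 lay wholly below control for KL-FL, IRS1 and FOXO1, and 1 for KL1, FOXO1. For KL1 the IRS1 difference was -0.034 (SE 0.027), with overlapping arrays. IRS2, a second adaptor and a known FOXO target, read 5.35, 5.35 and 5.38 in control, 5.38, 5.44 and 5.36 with KL-FL and 5.37, 5.38 and 5.43 with KL1. Its log2 differences were 0.034 for both vectors (SE 0.033 each), and the KL-FL sign turns under quantile normalization.

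PIK3R1 encodes p85alpha, the regulatory subunit that docks PI3K onto phosphorylated IRS proteins. It read 7.09, 7.10 and 7.04 in control, 7.09 on all 3 KL-FL arrays and 7.09, 7.19 and 7.09 with KL1. The groups overlapped, and KL1 replicate 2 was the highest of the 9. The log2 difference was 0.015 for KL-FL and 0.046 for KL1 (SE 0.034 each), with 95% confidence intervals of -0.06 to 0.09 and -0.03 to 0.12.

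FOXO1, a transcription factor that AKT keeps out of the nucleus, was the gene of the 10 whose arrays separated from control with both vectors. It read 6.62, 6.65 and 6.63 in control, 6.40, 6.54 and 6.53 with KL-FL and 6.39, 6.54 and 6.59 with KL1. The controls were tight, at 6.63 ± 0.015 (SD, n = 3), and the klotho groups were wider, at 6.49 ± 0.077 with KL-FL and 6.51 ± 0.10 with KL1 (SD, n = 3 each), with replicate 1 of each vector lowest. Both comparisons use the same control arrays, so the separations are not independent. The share of all genes below control with both vectors at once is not given here. Arrays of the first group all lay below control in 3.25% of genes for KL-FL and in 4.34% for KL1. The limma adjusted p was 0.688 for KL-FL and 0.927 for KL1, with 95% confidence intervals of -0.27 to -0.02 and -0.25 to 0.0024. Without replicate 1 of the vector, the KL-FL difference was -0.099 and the KL1 difference -0.067.

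FOXO4, a further AKT-controlled FOXO factor encoded on chromosome X, read 5.41, 5.61 and 5.56 in control, 5.22, 5.41 and 5.28 with KL-FL and 5.45, 5.41 and 5.33 with KL1. Control replicate 1 was low, and KL-FL replicate 2 lay just above it, so control and KL-FL overlapped by that pair. The KL-FL mean of 5.30 ± 0.098 was below the control mean of 5.53 ± 0.11 (SD, n = 3 each). The limma adjusted p was 0.650, with a 95% confidence interval of -0.38 to -0.08. Of all genes, 1.24% had a smaller p in that comparison. For KL1 the log2 difference was -0.13 (SE 0.066, 95% confidence interval -0.28 to 0.02).

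With array weights, which let limma trust some arrays more than others, FOXO4 and FOXO1 were called lower with KL-FL, at log2 differences of -0.31 (adjusted p = 0.0352) and -0.22 (adjusted p = 0.0431). That setting called 523 genes, 2.91% of all, and 134 of them, 0.746%, were lower. KL-FL replicate 1 then carried 89.2% of the weight of its group, and it holds the lowest KL-FL value of both genes. Without that array, with no weights, the differences were -0.18 for FOXO4 and -0.099 for FOXO1.

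FOXO3, a FOXO factor close to FOXO1, had a dim probe set and the largest SE of the 10. It read 4.46, 4.75 and 4.68 in control, 4.68, 4.76 and 4.56 with KL-FL and 4.68, 4.92 and 4.75 with KL1. The groups overlapped throughout, with control replicate 1 lowest and KL1 replicate 2 highest. The log2 difference was 0.15 (SE 0.088, 95% confidence interval -0.05 to 0.36) for KL1, and 0.071 without control replicate 1 or 0.085 without KL1 replicate 2. It was 0.034 (SE 0.088) for KL-FL, with a sign that turns under quantile normalization. A brighter probe set, left out because it names both FOXO3 and its near-identical copy FOXO3B, gave 0.11 for KL1 and 0.066 for KL-FL, and the 2 genes cannot be told apart there.

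Between control and KL1 arrays of the same replicate number, deviations from group means correlated at 0.113, 0.322 and 0.186. For arrays of different numbers the r ran from -0.258 to 0.078. The labels state no pairing, and reading the KL1 values within numbers was a choice made here. IGF1R was lower with KL1 in all 3 number pairs, by differences of -0.17, -0.12 and -0.24. FOXO3 was higher in all 3, by 0.21, 0.17 and 0.077. Of the 10 genes 8 kept 1 direction in all 3 pairs, against 25.4% of all genes. Those lower were IGF1R, INSR, IGF2R, IRS1 and FOXO1 (12.1% of all genes were lower), and those higher were IRS2, PIK3R1 and FOXO3 (13.3% were higher). Some of these differences were small, among them PIK3R1 at 0.0031 and IGF2R at -0.012 for number 1 and INSR at -0.0041 for number 2. The 10 share the same 6 arrays, the count was made after their values had been seen, and in the limma fit blocked on replicate number the adjusted p of the 10 lay between 0.895 and 1. Read the same way for KL-FL against control, 3 of the 10 were lower and 0 higher in all 3 pairs. Between KL-FL and KL1 it was 1 higher and 0 lower, and the share of all genes is not given here for either.

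**Figure D2:**
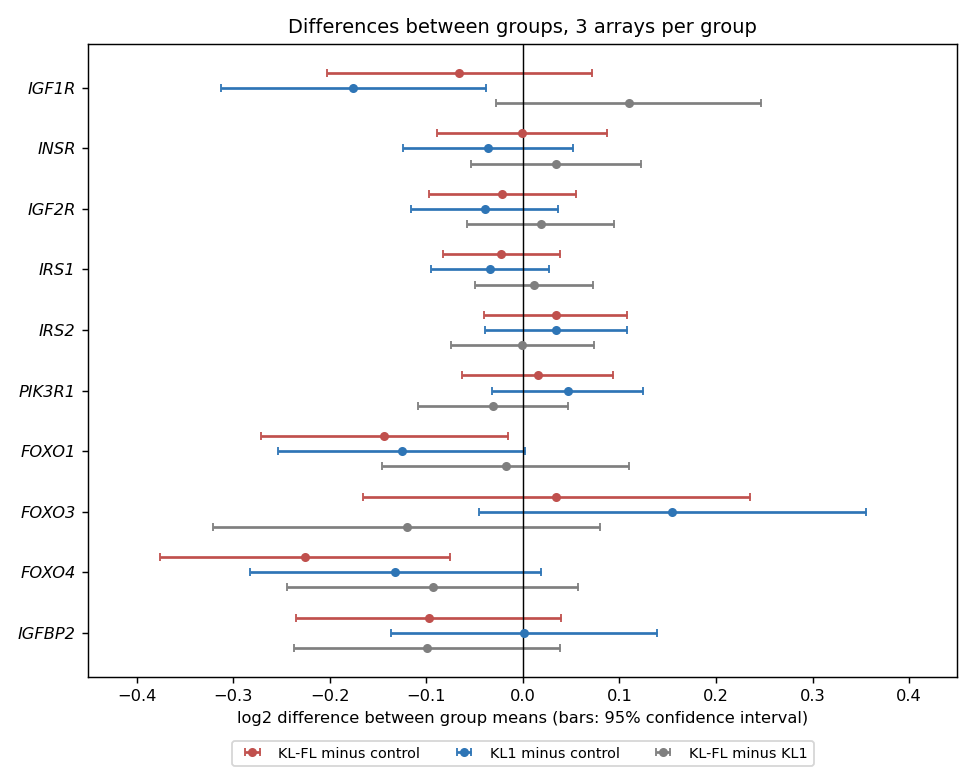
Log2 difference between group means (horizontal axis) of each gene for the 3 comparisons, with bars giving the 95% confidence interval of the limma model with 3 arrays per group. The KL-FL intervals of FOXO1 and FOXO4 and the KL1 interval of IGF1R leave out 0, and none of these 3 passed after adjustment over all genes.

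The sequences just upstream of FOXO1, FOXO4 and IGF1R, the 3 genes with the differences of lowest p, are shown because FOXO factors bind DNA and act on genes of their own pathway. Each is the 250 bases before the RefSeq gene start (GRCh38.p14), read in the direction of the gene, with the forkhead core AAACA, on either strand, in capitals.
FOXO1, minus strand, chr13:40666642-40666891: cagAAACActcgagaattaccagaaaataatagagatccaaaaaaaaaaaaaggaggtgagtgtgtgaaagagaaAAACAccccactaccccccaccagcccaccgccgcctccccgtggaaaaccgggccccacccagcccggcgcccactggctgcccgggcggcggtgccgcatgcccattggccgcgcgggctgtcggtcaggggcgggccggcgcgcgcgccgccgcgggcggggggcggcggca
FOXO4, plus strand, chrX:71095601-71095850: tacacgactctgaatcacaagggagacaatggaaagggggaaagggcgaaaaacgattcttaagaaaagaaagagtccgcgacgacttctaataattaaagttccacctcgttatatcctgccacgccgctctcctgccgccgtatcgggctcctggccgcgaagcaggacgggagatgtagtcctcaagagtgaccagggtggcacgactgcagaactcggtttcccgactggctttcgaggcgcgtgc
IGF1R, plus strand, chr15:98648289-98648538: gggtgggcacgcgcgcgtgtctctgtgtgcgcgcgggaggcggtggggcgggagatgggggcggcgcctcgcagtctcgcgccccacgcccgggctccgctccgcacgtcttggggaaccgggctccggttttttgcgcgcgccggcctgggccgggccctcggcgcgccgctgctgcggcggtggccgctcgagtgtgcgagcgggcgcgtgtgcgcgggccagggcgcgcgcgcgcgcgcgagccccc
The FOXO1 window held 2 cores, starting 247 and 175 bases before the gene start, and the FOXO4 and IGF1R windows 0. The core is short and was found in 40.4% of 35116 RefSeq windows of the same length. The 10 genes matched 18 windows, since some have several starts, and 7 of these, from 6 genes, held the core. The longer FOXO element GTAAACA, which contains the core, was in 0 of the 18 and in 2.98% of all windows. The G and C content was 67.2% in the FOXO1 window, 54.4% for FOXO4 and 81.2% for IGF1R, with a median of 58.0% over all windows. These matches describe letters in the window and say nothing of binding.

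Between full-length klotho and the KL1 subdomain 0 of the 10 genes differed in limma, with 0 at an unadjusted p under 0.05, where 5.05% of all genes were, 3.49% higher and 1.55% lower with KL-FL. IGF1R was 0.11 higher with KL-FL (95% confidence interval -0.03 to 0.25), FOXO3 differed by -0.12 (-0.32 to 0.08), IGFBP2 by -0.099 (-0.24 to 0.04) and FOXO4 by -0.093 (-0.24 to 0.06). Single arrays moved these values: IGF1R was at 0.041 without KL1 replicate 3, FOXO3 at -0.051 without KL1 replicate 2, IGFBP2 at -0.020 without KL-FL replicate 3 and FOXO4 at -0.051 without KL-FL replicate 1. FOXO1 differed by -0.018 (-0.15 to 0.11), a sign that turns without KL-FL replicate 1. The other 5 differed by between -0.031 and 0.034, and of these INSR, IGF2R and IRS1 turn sign under quantile normalization. The groups overlapped for all 10, while 6.88% of all genes had no overlap, 4.67% with KL-FL higher and 2.21% with KL-FL lower. The intervals still hold differences as large as those seen against control, so the vectors were not shown to act alike.

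The array profiles were compared over all 9 arrays and again within groups. IGF1R correlated with IGF2R (Pearson r = 0.867) and IRS1 (r = 0.839) over the 9 arrays, and inversely with IRS2 (r = -0.713). The deviations from group means gave r = 0.859, 0.711 and -0.702 for the same pairs. PIK3R1 differed between these readings, with r = 0.021 with IGF1R and 0.160 with IRS1 over the 9 arrays, and 0.751 and 0.958 on deviations within groups. Over the 9 arrays the r of IGF1R with the rest of the 10 was weaker, between -0.329 (FOXO3) and 0.452 (INSR). Among all genes IGF2R ranked 50 and IRS1 87 in likeness to IGF1R. KL1 replicate 3 was the lowest array for 4 of the 10, IGF1R, INSR, IGF2R and IRS1, and control replicate 2 the highest for 5. Of all 17957 other genes, those most like IGF1R were the amino acid transporter SLC7A8 (r = 0.975), the docking protein GAB1 (r = 0.946) and NUDT5 (r = 0.944). These describe 9 points that share their RNA, array and processing, with frequent ties, and the top ones were picked from all genes.

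**Figure D3:**
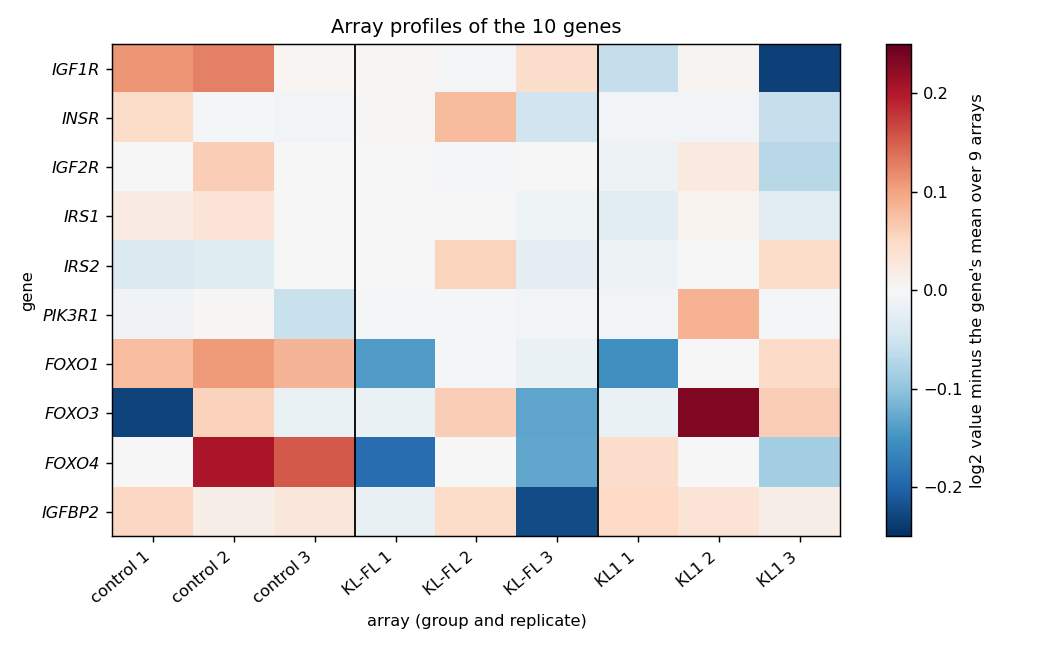
Log2 value of each of the 10 genes (rows) on each array (columns, grouped by vector) minus the mean of that gene over the 9 arrays, as colour from -0.25 to 0.25. IGF1R is lowest on KL1 replicate 3, IGFBP2 on KL-FL replicate 3 and FOXO3 on control replicate 1. FOXO1 is above its mean on the 3 control arrays and on KL1 replicate 3.

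Further pathway genes were read from 6 lists, 93 genes in all, of which 82 were measured. None passed the limma test in any of the 3 comparisons. At an unadjusted p under 0.05 there were 2 higher and 1 lower for KL-FL, and 2 higher and 3 lower for KL1, where 4.88% and 2.28% of all genes were higher and lower for KL-FL and 2.99% and 2.11% for KL1. The median log2 difference of the 82 was 0.0091 for KL-FL and 0.0029 for KL1, against 0.0099 and 0.0026 for all genes. For KL-FL 2 of the 82 lay wholly above control and 1 wholly below, where 7.13% and 3.25% of all genes did. For KL1 it was 2 above and 6 below, where 5.13% and 4.34% of all genes did. The lack of overlap in single genes below is to be read beside these shares. The other 11 listed genes were not analysed here, among them IGF2 and INS, whose probe sets name several genes.

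Among IGF ligands and binding proteins, 5 of 9 were above control with KL-FL and 7 of 9 with KL1, by medians of 0.030 and 0.058, where 57.3% and 52.1% of all genes were above. IGF1, IGFBP5 and PAPPA2 read low, at 3.24, 3.32 and 3.40 in control, and the KL1 median is the IGFBP5 value. IGFBP3, a carrier of circulating IGF, had the smallest p for KL1, with 4.39 ± 0.13 against 4.25 ± 0.044 in control (SD, n = 3 each), a log2 difference of 0.14 (SE 0.075, limma adjusted p = 0.927), which was 0.072 without KL1 replicate 1. IGFBP4 differed by 0.080 with KL-FL. PAPPA2, a protease that cuts IGF binding proteins, differed by 0.057 and 0.060.

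Among receptor adaptors and brakes 8 of 11 were above control with each vector, by medians of 0.022 and 0.042. GAB1, which docks PI3K and the phosphatase SHP2 to receptors, read 5.68, 5.77 and 5.65 in control and 5.57, 5.64 and 5.46 with KL1, all KL1 arrays lying lower. Its log2 difference was -0.14 (SE 0.052, limma adjusted p = 0.927), and it was -0.028 when the probe sets of the gene were averaged. GRB14, an inhibitor of the insulin receptor, differed by 0.077 with KL-FL, the phosphatase PTPN1 by 0.062, and IRS4 by 0.049 with KL1. The IRS4 level was low, at 2.88 in control.

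Of 15 measured genes of PI3K, AKT and their phosphatases, 10 were above control with KL-FL (median 0.037) and 7 with KL1 (median -0.013). SGK3, a kinase related to AKT, read 7.16, 7.13 and 7.04 in control and 7.24, 7.19 and 7.34 with KL-FL, without overlap, a log2 difference of 0.15 (SE 0.046, limma adjusted p = 0.682). PDPK1, which phosphorylates AKT, differed by 0.096 with KL-FL, and by 0.046 without KL-FL replicate 1. PHLPP1, a phosphatase of AKT, read 6.50, 6.41 and 6.39 in control and 6.29, 6.37 and 6.27 with KL1, without overlap, a difference of -0.12 (SE 0.040, limma adjusted p = 0.927). AKT2 differed by -0.072 with KL1, again without overlap. TRIB3, a pseudokinase that binds AKT, was named after its values were seen and differed by 0.13 with KL1 (95% confidence interval -0.06 to 0.31).

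In the mTOR branch 6 of 12 were above control with KL-FL and 7 of 12 with KL1. RPS6KB1, which encodes the ribosomal S6 kinase, had the smallest p of all listed genes. It read 8.11, 7.92 and 8.02 in control, 8.19, 8.26 and 8.28 with KL-FL and 8.10, 8.20 and 8.12 with KL1, so KL-FL did not overlap with control and KL1 did. Its log2 difference was 0.23 (SE 0.052, limma adjusted p = 0.550) for KL-FL and 0.12 (SE 0.052, limma adjusted p = 0.927) for KL1. RHEB, the GTPase that activates mTOR complex 1, differed by -0.13 with KL-FL (SE 0.042, limma adjusted p = 0.688), and DEPTOR, an mTOR inhibitor, by -0.082 with KL1. With array weights RPS6KB1, PDPK1 and GADD45A were called higher with KL-FL, at 0.20, 0.19 and 0.19 (limma adjusted p = 0.0432, 0.0494 and 0.0448). The same weights called 523 genes, 2.91% of all, with 0.746% of all called lower. They gave KL-FL replicate 1 89.2% of the weight of its group. Of the listed genes, only those with the smallest p for KL-FL in each list were followed in this setting.

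Among FOXO partners and modifiers 7 of 10 were above control with KL-FL and 4 of 10 with KL1, with medians of 0.025 and -0.011. Of the genes for 14-3-3 proteins, which hold phosphorylated FOXO in the cytosol, YWHAG differed by -0.098 with KL-FL (95% confidence interval -0.24 to 0.04), and by -0.034 without KL-FL replicate 3. YWHAB and YWHAH differed by -0.036 and 0.057 with KL1, and by -0.016 and 0.027 without control replicate 1. The kinase STK4 differed by 0.069 with KL-FL, and by 0.015 without KL-FL replicate 3.

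FOXO target genes went both ways. Of 25 measured, 13 were above control with KL-FL and 12 with KL1, with medians of 0.0021 and -0.00075. Several read low: TNFSF10, PPARGC1A, G6PC1, TRIM63, TXNIP and PCK1 were at 2.71, 2.83, 3.32, 3.44, 3.45 and 3.63 in control. The sign of a difference says little at such levels. SESN3, a stress-induced target, was at 4.17 ± 0.12 in control and 3.96 ± 0.068 with KL1 (SD, n = 3 each), without overlap, a log2 difference of -0.22 (SE 0.059, limma adjusted p = 0.927). GADD45A, a growth arrest gene also driven by p53 and by stress, was at 7.47 ± 0.085 in control and 7.62 ± 0.0092 with KL1 (SD, n = 3 each), without overlap, a difference of 0.14 (SE 0.060), and it differed by 0.13 with KL-FL. BCL6, a transcriptional repressor, differed by -0.11 with KL-FL.

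**Figure D4:**
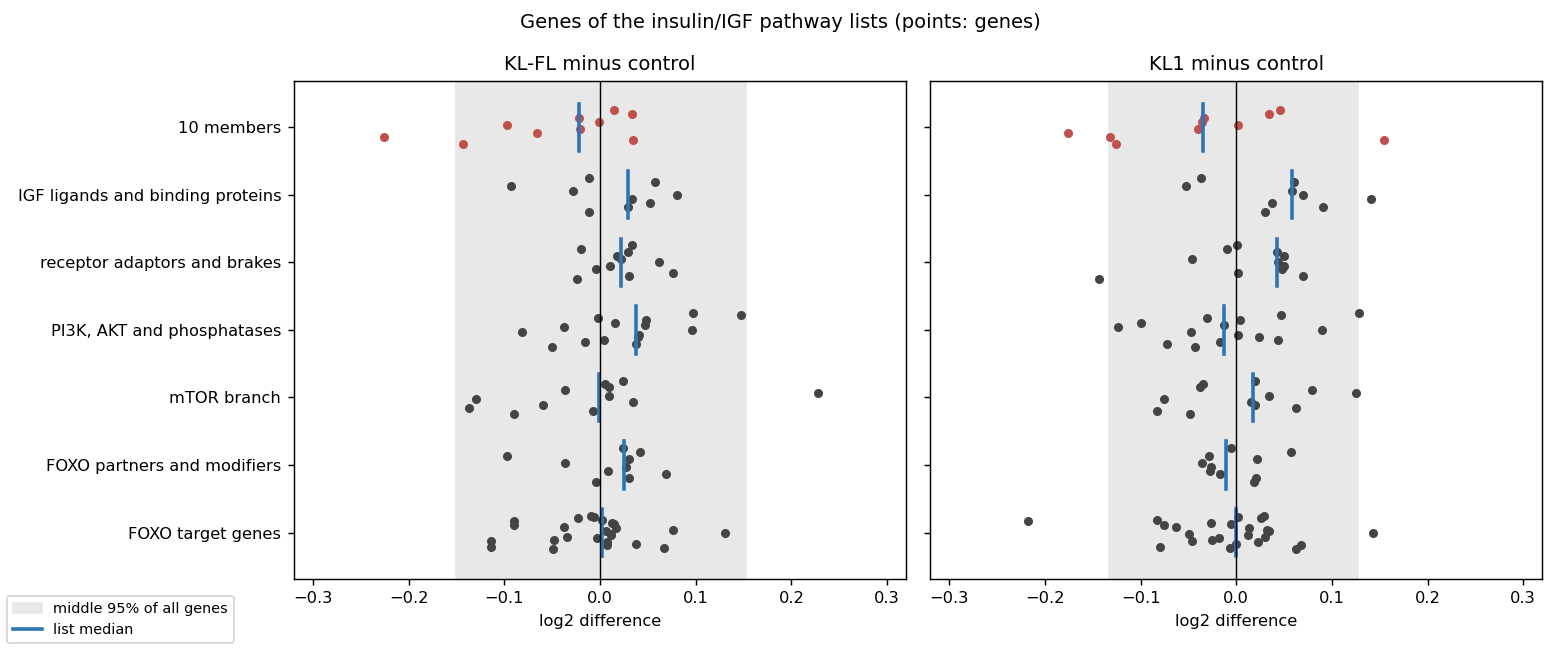
Log2 difference from control (horizontal axis) of each gene (points) in the 10 genes and in the 6 pathway lists, for KL-FL (left) and KL1 (right), with blue lines at list medians and a grey band over the middle 95% of all genes. FOXO4 lies left of the band for KL-FL, RPS6KB1 right of it for KL-FL, while for KL1 IGF1R, SESN3 and GAB1 lie left of it and FOXO3, GADD45A, IGFBP3 and TRIB3 right of it.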

How the data were processed

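RNA was extracted 24 hours after transfection and, per the labels' protocols, 100 ng went into a WT PLUS labelling reaction. The deposited values, on the log2 scale, cover 33297 probe sets on 9 arrays. Partek 6.6 is named, per the submitters' processing notes, while how the arrays were normalized is not given in the sources used here. That the scale is log2 was read from the deposited values, which run from 1.79 to 12.4. Detection calls were not used here, and the number of arrays limits the precision.

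Probe sets were named through the platform annotation, and 19181 named 1 gene. Symbols were checked through gene IDs, which changed 0. The brightest probe set over the 9 arrays stood for each gene, giving 17958 genes. The 3 groups entered 1 linear model with no covariates (limma 3.58.1, R 4.3.3), with 6 residual degrees of freedom. Two-sided p-values were adjusted over all genes by Benjamini-Hochberg, at 0.05, with 95% confidence intervals. The model was tested on simulated data drawn as independent normal noise, without the frequent ties of the deposited values. Recovery was required only at a difference larger than any of the 10 genes showed, and that of smaller differences is not given here. The text names the 10 genes, the 2 genes of each pathway list with the smallest p in each comparison with control, and the 3 genes most correlated with IGF1R. The members and lists were chosen with earlier results of these data known. Markers were listed only to check the cell line.

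The labels number replicates 1 to 3 in each group. Deviations from group means correlated at 0.113, 0.322 and 0.186 between control and KL1 arrays of one number. These arrays may be paired, which the labels do not state. Between control and KL1 arrays of different numbers the r ran from -0.258 to 0.078. The deviations of a group sum to 0, so these r are not independent. Of same-number pairs with KL-FL the highest was 0.097. Upstream windows came from the RefSeq table and were searched for exact letters. Other normalizations, filters, probe set rules and variance models, the replicate number as a block and each array left out in turn were tried.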

Additional observations from a re-analysis of the deposited data

How the results depend on the processing

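The count of the 10 genes called stayed 0 in each comparison, except with array weights, where 2 were called for KL-FL. The count of all genes called, 1 for each vector against control and 0 between vectors, became 523, 2 and 1 with array weights. It was 0 for both vectors with every probe set tested, with the own variance of each gene, and under the replicate block. It was also 0 for KL-FL with only the 6 arrays compared, and 1 between vectors with the own variance of each gene. Leaving out 1 array gave counts from 0 to 1 against control, and the DDIT3 call ended for both vectors without any 1 control, KL1 replicate 1 or KL1 replicate 3, for KL-FL without KL-FL replicate 1, and for KL1 without KL1 replicate 2. The replicate block changed no other call, and IGF1R then had adjusted p = 0.895 for KL1 in limma. The median between vectors moved from -0.0092 to -0.047 under quantile normalization, and ran from -0.030 to 0.0078 with 1 array left out, above 0 without KL-FL replicate 1. Among the 54 differences followed gene by gene, 11 turned sign somewhere. IGFBP2 for KL1 was -0.0032 with centred arrays. Under quantile normalization IRS2 and FOXO3 were -0.0021 and -0.0056 for KL-FL, and INSR, IGF2R and IRS1 were -0.0048, -0.0068 and -0.014 between vectors. With 1 array left out, for KL-FL INSR ranged from -0.036 to 0.029, FOXO3 from -0.049 to 0.095 and PIK3R1 from -0.0020 to 0.027. IGFBP2 for KL1 ranged from -0.0074 to 0.012. Between vectors IRS2 ranged from -0.023 to 0.017, FOXO1 from -0.077 to 0.026 and IGF2R from -0.0068 to 0.040. The dimmer IGF1R probe set, chosen after seeing the data, gave 0.021 for KL-FL. The cause was not tested in any of these. Without genes below the 50th percentile IRS2 and FOXO3 were not tested.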
